A study of Mus musculus with 2 samples.

Results

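The cells described here were transitional chondrocyte-like cells of the fracture callus, the repair tissue that bridges a broken bone, and they were defined by a moderate level of Col10a1, the collagen X gene that marks hypertrophic chondrocytes. A barcode was a member if it held at least 200 genes, at most 20% mitochondrial UMIs (unique molecular identifiers, each counting 1 captured transcript) and at least 5000 UMIs in all. Per 10000 UMIs it also needed at least 100 of Col2a1 (collagen II) and 10 of Acan (aggrecan), and Col10a1 of 10 to under 100. Barcodes with 50 or more UMIs per 10000 of the myeloid genes S100a8, S100a9, C1qa, C1qb and C1qc, with 20 or more of the acute-phase genes Saa3, Hp, Lcn2 and Chil1, or with 10 or more UMIs of the cell cycle genes Mki67, Top2a, Birc5, Ube2c, Cdk1 and Cenpf were left out. In all, 345 of 22304 barcodes met the rule. They were 328 of the 2238 cells that passed every threshold but the Col10a1 one (cartilage cells) in library MGJ, or 14.7% (exact Clopper-Pearson 95% interval 13.2 to 16.2). In library MGJ2 they were 17 of 103, or 16.5% (9.92 to 25.1). These shares followed from the rule and were not tested.

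The study took calluses from wild-type C57BL/6J male mice of 12 weeks after a femoral fracture, at 10 days post-fracture (dpf) from 5 mice and at 20 dpf from 5 mice, with no other genotype or treatment in these 2 libraries. The tissue was digested, and single cells were run on the 10x Chromium 3′ v3 platform with about 5000 cells aimed at per library. Which library came from which day is not stated in the labels, and a barcode cannot be traced to its mouse. Each library was therefore described on its own as 1 sample, the libraries were not compared as days, and no test across samples could be made.

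In endochondral repair, chondrocytes stop dividing, become prehypertrophic, then enlarge into hypertrophic cells whose matrix calcifies and is replaced by bone. Indian hedgehog (Ihh) from prehypertrophic cells and parathyroid hormone-related protein (Pthlh) act in a loop, and the receptor Pth1r lets chondrocytes respond to the latter. Collagen X, bone sialoprotein (Ibsp), osteopontin (Spp1), alkaline phosphatase (Alpl) and the collagenase Mmp13 belong to the later stages. The word transitional refers here to the Col10a1 level alone, since no order in time was measured.

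Members were set beside the cartilage cells of the same library with Col10a1 under 10 per 10000 UMIs (lower-Col10a1 cells, 1475 in MGJ and 48 in MGJ2) and with 100 or more (higher-Col10a1 cells, 435 and 38). Both comparisons used the same members. The libraries held 135304426 and 61130834 UMIs, of which members held 8250040 and 565934. The median member had 24785.5 UMIs and 4065 genes in MGJ, against 20918 and 3694 in lower-Col10a1 cells and 22853 and 3799 in higher-Col10a1 cells. In MGJ2 the median UMIs were 33284, 30746 and 33062.5 in members, lower- and higher-Col10a1 cells. The median mitochondrial share of members was 3.13% in MGJ, between 3.83% and 2.98% in the other classes, and 2.82% in MGJ2, between 3.41% and 2.60%. The part of these depth and mitochondrial differences in the results was not tested. The libraries shared 19 barcodes, and no barcode was a member in both.

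The members filled the whole Col10a1 range, with a median of 34.7 per 10000 UMIs in MGJ (10.1 to 99.3) and 31.3 in MGJ2 (10.2 to 89.2), which was a median of 82 and 105 Col10a1 UMIs per cell. The limits cut through a continuous range in MGJ. The nearest cells there lay at 9.98 and 10.06 around the lower limit and at 99.3 and 100.1 around the upper one, against 9.48 and 10.2, and 89.2 and 128, in MGJ2. Of the 328 members in MGJ, 51 had a Poisson interval of their Col10a1 count that reached below the lower limit, 19 had one that reached the upper limit, and 258 were clear of both, as were 16 of 17 in MGJ2. The members nearest the Col2a1 minimum had 103.9 and 140.1 per 10000 UMIs, against 86.5 and 44.9 in the nearest barcodes outside. For the Acan minimum these values were 13.6 and 12.7 inside, and 4.34 and 8.71 outside.

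**Figure D1:**
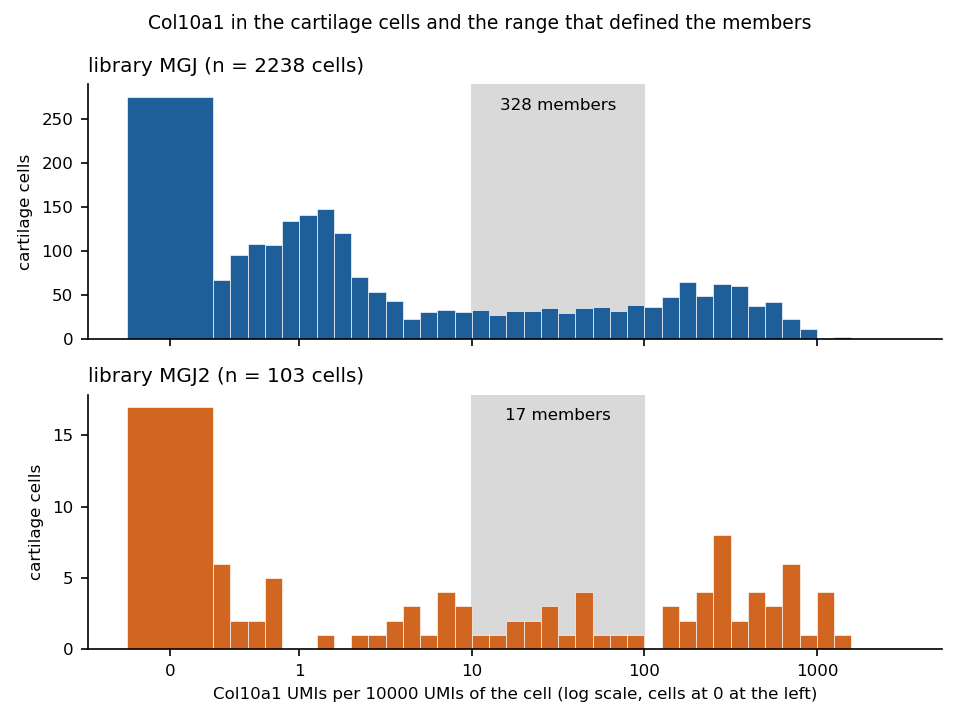
Number of cartilage cells (vertical axis) by Col10a1 UMIs per 10000 UMIs of the cell (horizontal log axis, with cells at 0 at the left end), for library MGJ (2238 cells) and library MGJ2 (103 cells). The grey band is the members' range of 10 to under 100, and the 328 and 17 members sit within a continuous spread with no gap at either limit in MGJ.

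The genes the results turn on were Col10a1 (chr10:34389981-34397085, plus strand), Ihh (chr1:74945315-74951672, minus strand), Pth1r (chr9:110722085-110747145, minus strand), Ibsp (chr5:104299171-104311469, plus strand) and Mmp13 (chr9:7272514-7283331, plus strand), all protein coding in the GENCODE M21 annotation of GRCm38. The reads were counted over these genes from their 3′ ends. The 250 bases before the start of Col10a1, Ihh, Ibsp and Mmp13 are shown, 5′ to 3′ on the strand of the gene, from RefSeq (GRCm38.p6). They lie at chr10:34389731-34389980 for Col10a1, chr1:74951673-74951922 for Ihh, chr5:104299037-104299286 for Ibsp, whose RefSeq start lies within the GENCODE gene, and chr9:7272264-7272513 for Mmp13. RUNX factors are known regulators of hypertrophic genes, so the windows were searched for the RUNX core letters ACCACA and, for the other strand, TGTGGT, and matches are in capitals.
Col10a1: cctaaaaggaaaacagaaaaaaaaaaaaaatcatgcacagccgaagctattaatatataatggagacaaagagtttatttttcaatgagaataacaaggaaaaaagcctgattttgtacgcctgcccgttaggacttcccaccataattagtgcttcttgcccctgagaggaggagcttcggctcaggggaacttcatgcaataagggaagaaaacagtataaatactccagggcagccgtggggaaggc
Ihh: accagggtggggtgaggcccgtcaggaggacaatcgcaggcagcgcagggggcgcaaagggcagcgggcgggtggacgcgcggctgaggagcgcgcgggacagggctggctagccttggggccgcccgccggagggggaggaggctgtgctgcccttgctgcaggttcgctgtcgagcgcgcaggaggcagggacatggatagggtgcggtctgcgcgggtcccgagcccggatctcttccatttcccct
Ibsp: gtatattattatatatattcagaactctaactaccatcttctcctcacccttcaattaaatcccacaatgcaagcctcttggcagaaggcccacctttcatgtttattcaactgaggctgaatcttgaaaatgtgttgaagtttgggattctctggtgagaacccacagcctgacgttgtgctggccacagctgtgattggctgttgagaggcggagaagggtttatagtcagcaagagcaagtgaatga
Mmp13: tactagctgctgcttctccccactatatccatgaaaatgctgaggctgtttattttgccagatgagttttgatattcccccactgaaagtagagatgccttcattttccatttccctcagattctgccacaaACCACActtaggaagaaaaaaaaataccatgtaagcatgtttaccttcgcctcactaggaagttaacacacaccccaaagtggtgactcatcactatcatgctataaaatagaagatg
The letters were present once, in the Mmp13 window, 118 bases before the start. Of all 32851 such windows of the annotation, 4614 (14.0%) held them on either strand. A match is a description of the letters and not a shown binding site, and where there was no match these letters are only not in this window.

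Next, the label was checked against chondrocyte markers that the rule did not use. Levels are given as CPM, the UMIs of a gene per 1000000 UMIs summed over the cells of a class, and brackets hold 95% intervals that cover counting error only. All 12 remaining chondrocyte markers were detected in members. Comp, a cartilage matrix protein, was at 11882 CPM in members of MGJ and 13289.5 CPM in members of MGJ2, against 1572 and 109.6 CPM in all kept barcodes that were not cartilage cells. Sox9, the master transcription factor of chondrocytes, was at 815 and 1601 CPM in members, against 214 and 29.0 CPM in those barcodes. Those barcodes also held some that met the Col2a1 and Acan minimums but missed another threshold, such as the minimum UMIs. They are thus not free of chondrocytes. Every one of the 328 and 17 members had at least 1 Pth1r UMI, as did 89.1% and 97.9% of lower- and 99.1% and 100% of higher-Col10a1 cells. The label of a chondrocyte with moderate Col10a1 and with Pth1r was thus met, although Col2a1, Acan and Col10a1 themselves were fixed by the rule. This check does not set the members apart from the other cartilage cells.

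For each gene with at least 100 UMIs over both classes, the ratio of members to the other class was read against 1.5-fold, with no test because each class came from 1 library. Over the lower-Col10a1 cells, 16.9% of 10122 genes were past 1.5-fold in MGJ (7.28% higher and 9.61% lower in members) and 17.2% of 2552 in MGJ2 (8.39% higher and 8.78% lower). Over the higher-Col10a1 cells, 15.1% of 8215 genes were past it in MGJ (7.61% higher and 7.45% lower) and 27.3% of 2371 in MGJ2 (16.4% higher and 10.9% lower). The median ratio over all genes lay between 0.976 and 1.04 in these 4 comparisons. The counts of listed genes are to be read against these shares.

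In the cartilage matrix list, most genes were within 1.5-fold between members and both neighbouring classes of MGJ. Against lower-Col10a1 cells, 2 of 12 genes were past 1.5-fold higher and none lower, with a list median ratio of 1.09. These were Hapln1, which links aggrecan to hyaluronan, at 7913 CPM in members against 3632, and Snorc, a cartilage membrane proteoglycan, at 8482 against 5524. In MGJ2 the same comparison had 1 of 12 past 1.5-fold higher (Matn1) and 1 lower (Cnmd), with a median ratio of 1.05. Hapln1 and Snorc were within 1.5-fold there. Against higher-Col10a1 cells of MGJ again 2 were higher and none lower. Cnmd (chondromodulin, an inhibitor of vessel growth) was at 2026 CPM in members, 2595 in lower- and 1179 in higher-Col10a1 cells. Matn3, a matrilin of the cartilage network, was at 3680.0, 3546 and 2435 CPM in the same order. In MGJ2, by contrast, 9 of 12 genes were past 1.5-fold higher in members than in higher-Col10a1 cells, with a median ratio of 1.94. Matn3 was there at 2808 CPM in members against 776, and Col9a1, a chain of collagen IX, at 4817 against 1691.

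The Pth1r gene set the members apart from the lower-Col10a1 cells in both libraries, and Ihh did so in MGJ but less surely in MGJ2. Pth1r was at 1462 CPM in members of MGJ [1436 to 1488], against 540.0 in lower- and 1381 in higher-Col10a1 cells. In MGJ2 it was at 2069 CPM in members [1952 to 2191], against 1113 and 1432. Members thus had the highest Pth1r level of the 3 classes in both libraries, 2.71-fold [2.64 to 2.77] and 1.86-fold [1.72 to 2.01] over lower-Col10a1 cells, while over higher-Col10a1 cells the ratio was only 1.06 in MGJ and 1.44 in MGJ2. Among single members of MGJ, 10% lay at or under 501 CPM of Pth1r and 10% at or over 2634 CPM. Ihh followed another course, with each class above the one before. It was at 26.2, 96.8 [90.2 to 104] and 229 CPM in lower-Col10a1 cells, members and higher-Col10a1 cells of MGJ. In MGJ2 these levels were 40.2, 136 [107 to 170.0] and 596 CPM. Members were thus 3.70-fold [3.35 to 4.08] and 3.38-fold [2.37 to 4.84] above lower-Col10a1 cells and 2.36-fold and 4.38-fold below higher-Col10a1 cells. In MGJ2, however, 49.4% of the Ihh UMIs of members came from 1 cell, and with the 9 members of 20 to under 50 per 10000 UMIs alone the ratio over lower-Col10a1 cells was 0.876.

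Shares of cells with a UMI were then compared, which depend on the level of a gene as well as on how evenly it is spread. After each cell was thinned to 5000 UMIs, 21.6% of members of MGJ had an Ihh UMI [17.3 to 26.5], between 6.51% of lower- and 42.3% of higher-Col10a1 cells, and 0 of 720 neutrophil barcodes of the same library did, which allows up to 0.511%. These neutrophil barcodes, which should not express chondrocyte genes, served as the reference for free RNA and had a median of 8274 UMIs (9830.5 in MGJ2). The unthinned share of members with an Ihh UMI was 43.6%. Pth1r was found in 97.3% of members [94.9 to 98.7], against 68.8% of lower- and 94.3% of higher-Col10a1 cells and 5.14% of the reference. All 71 members of MGJ with an Ihh UMI also had a Pth1r UMI, 248 had Pth1r alone and 9 had neither. In MGJ2, 3 members had both, 14 had Pth1r alone, and the Ihh share was 17.6% [3.80 to 43.4] with an unthinned share of 47.1%. That interval overlapped the one of lower-Col10a1 cells there, at 8.33% [2.32 to 20.0], while higher-Col10a1 cells were at 50% [33.4 to 66.6].

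Of 11 genes of the hedgehog and parathyroid hormone-related protein list measured over lower-Col10a1 cells in MGJ, 2 were past 1.5-fold higher (Ihh and Pth1r), 4 were lower and 5 were within 1.5-fold. Ptch1, the hedgehog receptor and itself a known target of the pathway, was at 119 CPM in lower-Col10a1 cells, 93.0 [86.5 to 99.8] in members and 33.8 in higher-Col10a1 cells of MGJ. It was at 188, 113 and 71.7 CPM in MGJ2, so members lay in between in both libraries, 2.75-fold [2.42 to 3.13] and 1.58-fold over higher-Col10a1 cells. In MGJ2 the last of these ratios was 0.981 once the 10% of cells with the most UMIs were left out. Gli1, another target, was at 4.92, 1.70 and 0.494 CPM in MGJ, and 0.610% of thinned members had a Gli1 UMI, against 0.139% of the reference. Gas1 and Boc, co-receptors for hedgehog ligands, were at 5.09 and 3.39 CPM in members of MGJ against 9.23 and 5.93 in lower-Col10a1 cells. Gli3, a transcription factor of the pathway, was at 13.6 against 22.1 CPM. Pthlh itself was at 3.62, 3.52 and 2.57 CPM in the 3 classes of MGJ.

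Among 8 prehypertrophic markers, 6 were past 1.5-fold higher in members than in lower-Col10a1 cells of MGJ (Ihh, Mef2c, Cd200, Pth1r, Dlx5 and Runx3) and none lower, with a median ratio of 2.09. In MGJ2, 5 of 7 were past 1.5-fold higher and none lower, with a median of 1.86. These were Ihh, Mef2c, Cd200, Pth1r and Sp7. Of Dlx5 and Runx3, only 1 had enough UMIs to be measured in MGJ2, and it was within 1.5-fold. With the members of 20 to under 50 alone, the MGJ2 ratios of Ihh and Sp7 fell to 0.876 and 0.532. Mef2c, a transcription factor that drives hypertrophy, was at 82.1, 228 and 371 CPM in the 3 classes of MGJ and at 184, 348 and 410.3 in MGJ2. Cd200, a membrane glycoprotein, was at 99.9, 275 and 318 CPM in MGJ. It was at 249, 465 and 318 CPM in MGJ2. Fgfr3, the receptor that restrains chondrocyte growth, had its highest level in members of MGJ, 232 CPM against 162 and 146. In MGJ2, at 272 against 259 and 81.5 CPM, its ratio over lower-Col10a1 cells lay between 0.883 and 1.27 across the alternative settings. The bone and cartilage regulator Sp7 was at 25.8, 28.6 and 28.5 CPM in MGJ. Against higher-Col10a1 cells, 1 of 8 markers was higher (Fgfr3) and 2 were lower (Ihh and Mef2c) in MGJ.

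The hypertrophic list was not of one kind in the members. Over lower-Col10a1 cells, 5 of its 7 genes outside the rule were past 1.5-fold higher in MGJ and 6 of 7 in MGJ2, with median ratios of 2.35 and 1.65 and none lower. Over higher-Col10a1 cells of MGJ, 1 was higher (Sgms2) and 4 lower, with a median of 0.545. In MGJ2, 2 of 7 were higher (Sgms2 and Phex) and 2 lower (Mmp13 and Spp1), with a median of 0.811. Ibsp, the acidic protein of mineralizing matrix, was at 1371 CPM in lower-Col10a1 cells, 5428 [5378 to 5479] in members and 11466 in higher-Col10a1 cells of MGJ. In MGJ2 it was at 5831, 9141 and 11267 CPM. Single members differed widely in Ibsp, with a median of 811 CPM in MGJ, at least 10% at 0 and 10% at or over 19306 CPM. Phex, an endopeptidase needed for mineralization, was at 6.28, 35.6 [31.7 to 40.0] and 79.0 CPM in MGJ. In MGJ2 members had the highest Phex level, 191 CPM against 52.0 and 103. Alpl, whose enzyme frees phosphate for mineral, was at 392, 1077 and 1274 CPM in MGJ and 943, 1804 and 1235 in MGJ2. Sgms2, a sphingomyelin synthase, was highest in members in both libraries, at 464, 905 and 582 CPM in MGJ and at 934, 1543 and 237 in MGJ2.

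Mmp13 and Spp1 need more care. Mmp13, the collagenase of late hypertrophic cartilage, was at 106 CPM in lower-Col10a1 cells, 140.2 [132 to 149] in members and 826 in higher-Col10a1 cells of MGJ. The members were thus within 1.5-fold of the lower-Col10a1 cells (1.32) and 5.89-fold below the higher-Col10a1 cells. In MGJ2 the levels were 104, 203 and 1438 CPM, with 39.1% of the members' UMIs in 1 cell. After thinning, 14.6% of members of MGJ had an Mmp13 UMI [11.0 to 18.9], no more than 16.2% of lower-Col10a1 cells and 13.9% of the neutrophil reference, while 40.7% of higher-Col10a1 cells did. The members' share in MGJ was thus at the level of background, whereas in MGJ2 it was 23.5% [6.81 to 49.9] against 2.14% of the reference. Spp1, a secreted phosphoprotein also made by macrophages, was at 2904, 6820.2 and 12522 CPM in MGJ and at 5739, 8906 and 21122 in MGJ2. Its share of thinned cells was 86.6% of members against 86.9% of the reference in MGJ, and 76.5% [50.1 to 93.2] against 70.2% in MGJ2. The share thus did not set members apart from the reference, and shares this high say little about the level.

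**Figure D2:**
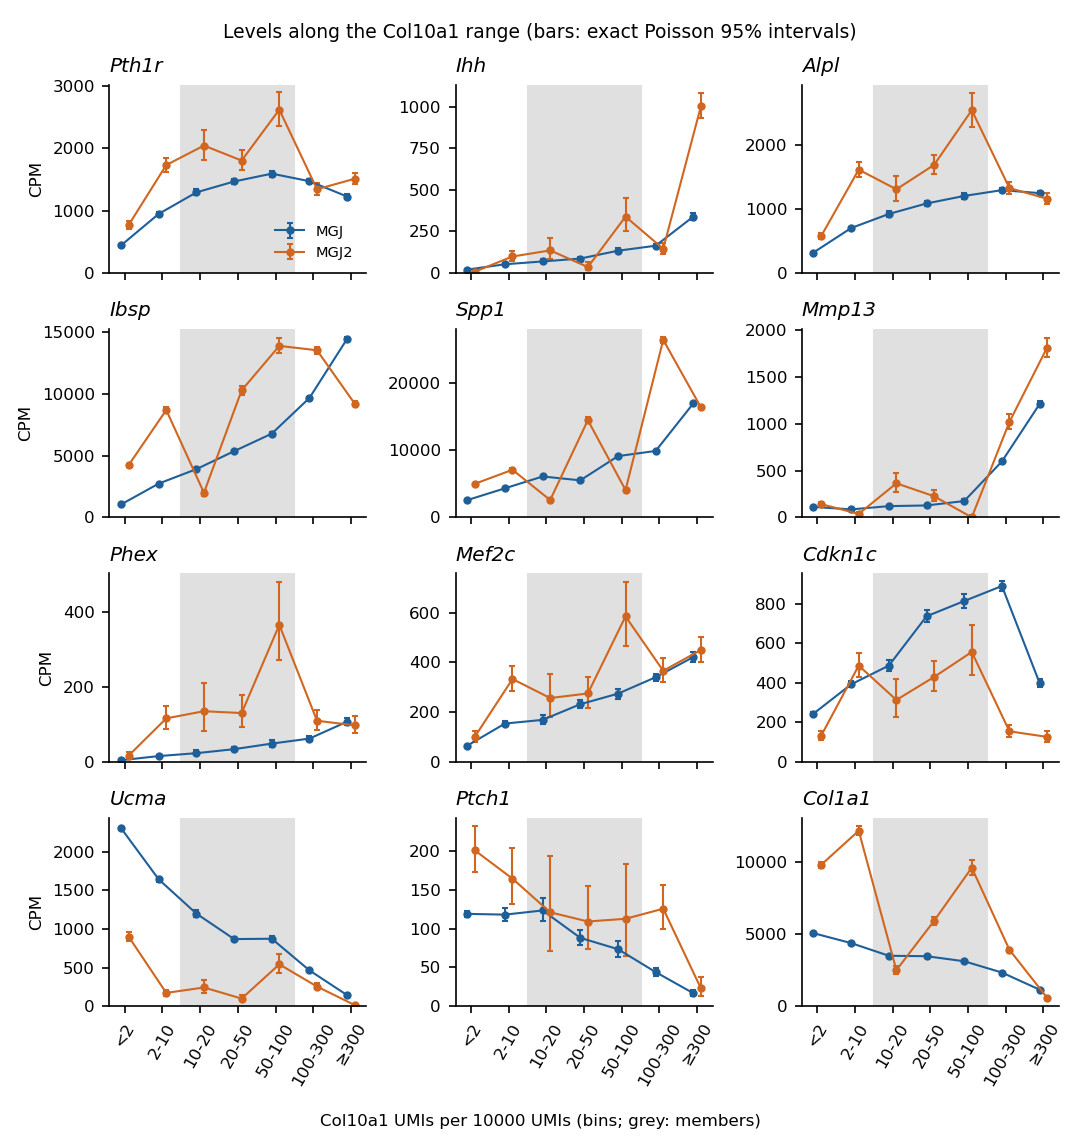
Level in CPM (vertical axes) of 12 genes in cartilage cells grouped into 7 bins of Col10a1 per 10000 UMIs (horizontal axes), for both libraries, with 95% Poisson bars. In the grey bins, which hold the members, Pth1r in MGJ was at 1293, 1468 and 1594 CPM and then 1473 and 1227 above them, while Mmp13 was at 119.9, 127 and 174 CPM and then 597 and 1210.5.

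Levels across finer Col10a1 bins, of 0 to under 2, 2 to under 10, 10 to under 20, 20 to under 50, 50 to under 100, 100 to under 300, and 300 or more per 10000 UMIs, showed 3 kinds of course in MGJ. The members were the 3 middle bins, with 91, 130 and 107 cells. Ihh was higher in each bin than in the one before, at 20.0, 52.0, 69.0, 86.4, 133.5, 163.5 and 339 CPM. Ibsp, Phex and Mef2c were likewise highest in the last bin. Pth1r, by contrast, peaked in the upper bin of the members, at 442, 948, 1293, 1468, 1594, 1473 and 1227 CPM, and Sgms2 was highest in their lowest bin, at 915 CPM against 398 in the first and 305 in the last bin. Panx3, a channel of prehypertrophic cells, was highest in the middle bin of the members at 435 CPM, as was Fgfr3 at 244. Cdkn1c was highest just above them, at 891 CPM. Ptch1 was at 119, 118, 124, 88.2, 73.5, 44.0 and 16.7 CPM, level up to the lowest bin of the members and lower in each bin after it. Ucma, a matrix protein of early and distal cartilage, was already lower in the members, at 2307 and 1644 CPM before them, 1199.7, 869.8 and 874 within and 464 and 143 after. In MGJ2 the member bins held 4, 9 and 4 cells, and no course was read from them.

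Next, the range within the members was examined, by setting the 107 members of MGJ with Col10a1 of 50 to under 100 beside the 91 with 10 to under 20. Of 4390 genes with enough UMIs, 6.74% were past 1.5-fold (3.23% higher and 3.51% lower at the high end). Of 228 listed genes, 14 were higher and 18 lower. The higher ones included Phex (2.12-fold [1.52 to 2.99]), Nog (2.06), Ihh (1.94 [1.60 to 2.36]), Loxl4 (1.91) and Bmp2 (1.76). The lower ones included Ccnd2, a cyclin of the division cycle, with a ratio of 0.487, Ptch1 with 0.595 [0.493 to 0.718], and Mgp with 0.662. In Phex, Nog, Ihh and Bmp2 the members of MGJ at the high end lay nearer to the higher-Col10a1 cells than those at the low end did. In MGJ2 the same bins held 4 cells each, 42% of 355 genes were past 1.5-fold (18% higher and 23.9% lower), and 23 of 70 listed genes were higher and 10 lower. Bmp2 ran the other way there, with 27 UMIs at the high end against 120 at the low end and a ratio of 0.223 [0.141 to 0.340].

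Of 22 osteochondral transcription factors measured in MGJ, 6 were past 1.5-fold higher in members than in lower-Col10a1 cells and 2 lower, with a median ratio of 1.09. Foxa2 and Foxa3, forkhead factors of hypertrophic differentiation, were at 69.2 and 125 CPM in members, against 21.4 and 57.4 in lower-Col10a1 cells and 81.5 and 116 in higher-Col10a1 cells. In MGJ2 Foxa3 was at 93.7 CPM in members against 43.0 and 79.2, while Foxa2, at 37.1 against 31.2 and 40.7, was within 1.5-fold of both. The genes past 1.5-fold lower were Sox5, a partner of Sox9, at 44.4 CPM against 80.7, and Hdac4, a repressor of hypertrophy, at 16.7 against 25.9. Runx2, the master factor of hypertrophy and bone, was within 1.5-fold in both comparisons of MGJ, at 72.2, 77.8 [71.9 to 84.1] and 102 CPM across the 3 classes. In MGJ2 it was at 112, 102 and 183 CPM, past 1.5-fold lower in members than in higher-Col10a1 cells. Sox9 was at 868, 815 and 744 CPM. In MGJ2, 3 of 18 factors were higher than in lower-Col10a1 cells and 2 lower.

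**Figure D3:**
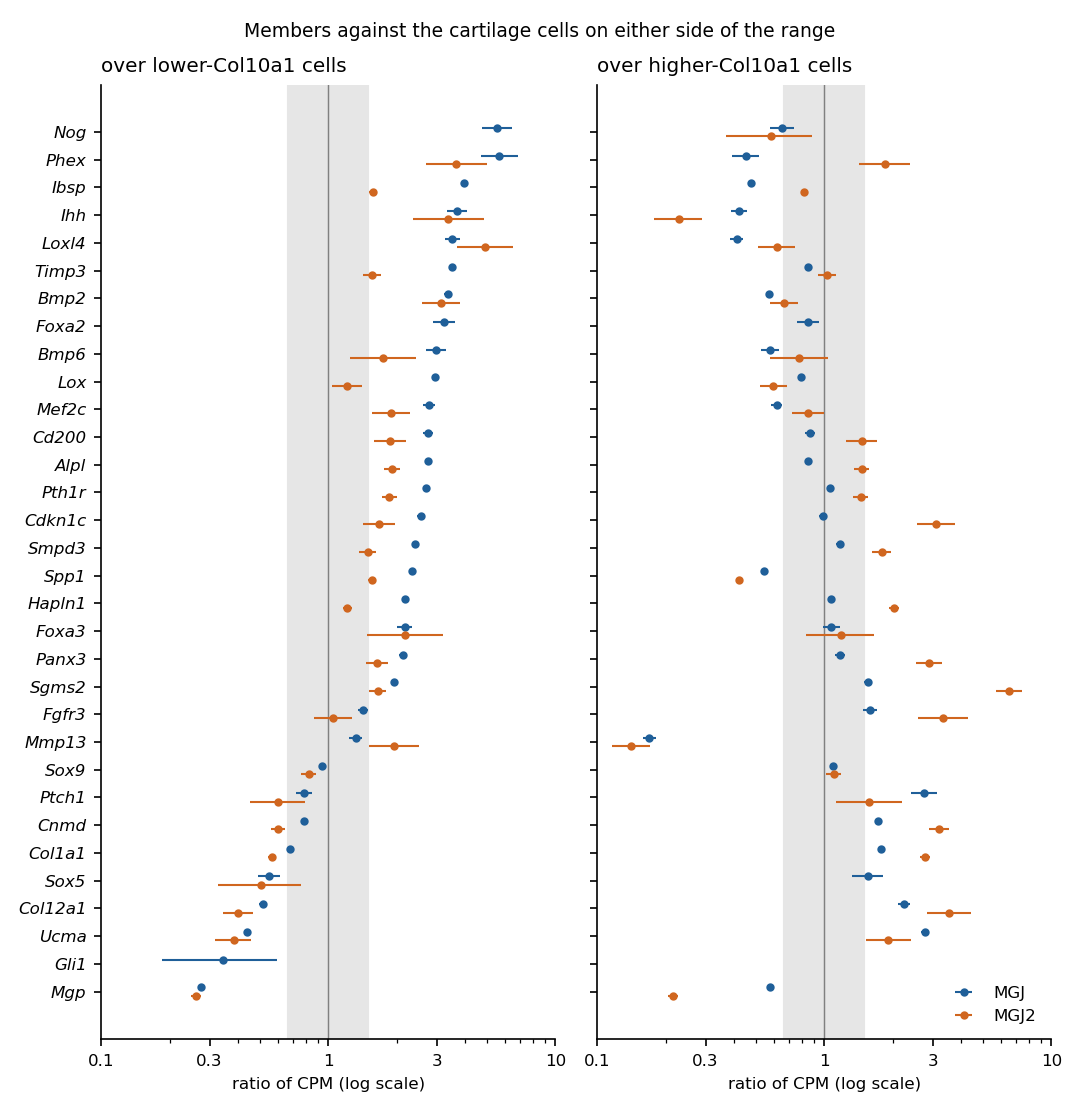
Ratio of members to lower-Col10a1 and to higher-Col10a1 cells (horizontal log axes) for 32 genes in both libraries, with exact 95% intervals of counting error and a grey band for ratios within 1.5-fold. Pth1r, Ihh, Phex and Ibsp lie to the right of 1 over lower-Col10a1 cells in both libraries, and Mmp13 lies far to the left over higher-Col10a1 cells, at 0.170 in MGJ and 0.141 in MGJ2.

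Among early chondrocyte genes, 0 of 10 were past 1.5-fold higher in members than in lower-Col10a1 cells of MGJ, 3 were lower and 7 within, and over higher-Col10a1 cells 5 were higher and 3 lower. Ucma was at 2179, 959.9 and 344 CPM in MGJ and 641, 246 and 128 in MGJ2, where the ratio over higher-Col10a1 cells was 0.770 with the members of 20 to under 50 alone. Scrg1 was at 699, 492 and 204 CPM in MGJ, and Epyc, a small leucine-rich proteoglycan, was at 405, 320.5 and 137. The FGF receptor Fgfr1 ran the other way, at 71.9, 98.2 and 282 CPM in MGJ. It was at 179.7, 270.4 and 622 CPM in MGJ2, where the ratio over lower-Col10a1 cells was 0.940 with the thresholds applied to thinned counts.

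Fibrillar and minor collagens separated members from higher-Col10a1 cells. None of 14 measured collagens was past 1.5-fold lower in members than in higher-Col10a1 cells of MGJ and 9 were higher, with a median ratio of 1.62. In MGJ2 all 11 measured were higher, with a median of 2.53. Over lower-Col10a1 cells, 3 of 15 were lower in MGJ and 3 of 11 in MGJ2, and none was higher. Col1a1, the main collagen of bone and fibrous tissue, was at 4945, 3372 and 1897 CPM in MGJ and at 10676, 6013 and 2164 in MGJ2. Col5a1, which nucleates collagen fibrils, was at 424, 422 and 186 CPM in MGJ. Col12a1, a fibril-associated collagen, was at 743, 384 and 171 CPM. The largest ratio over higher-Col10a1 cells was that of Col8a1, a short-chain collagen, at 11.0 against 3.56 CPM, but 42.9% of its UMIs in members came from 1 cell. The smallest ratio over lower-Col10a1 cells was that of Col14a1, another fibril-associated collagen, at 5.45 against 19.8 CPM.

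Next, genes that fold, modify and secrete matrix were examined. Of 25 genes of the unfolded protein response and secretory machinery, 23 were within 1.5-fold between members and lower-Col10a1 cells of MGJ, with 1 higher and 1 lower. Over higher-Col10a1 cells 6 of 25 were higher and none lower in MGJ, and 16 of 21 were higher in MGJ2. The chaperone Hspa5 was at 811, 769.8 and 471 CPM in MGJ and 1076, 1129 and 490.2 in MGJ2. Creb3l2, a transcription factor of collagen secretion, was at 236, 147 and 77.3 CPM in MGJ, and Ddit3, of the terminal stress response, at 34.5, 54.4 and 72.0. For collagen processing, 9 of 19 genes were higher and 2 lower over higher-Col10a1 cells of MGJ, and 11 of 18 were higher and 2 lower in MGJ2. Pcolce, an enhancer of procollagen cleavage, was at 213 CPM in members against 86.0 in higher-Col10a1 cells. The cross-linking enzymes Loxl4 and Lox were past 1.5-fold higher in members than in lower-Col10a1 cells, at 151 and 735 CPM in members against 42.8 and 249 in lower-Col10a1 cells and 366 and 930.1 in higher-Col10a1 cells of MGJ. For proteoglycan sulphation, 16 of 18 genes were within 1.5-fold over lower-Col10a1 cells of MGJ, while 7 of 18 were higher and none lower over higher-Col10a1 cells, and 12 of 12 were higher in MGJ2. Csgalnact1, which starts chondroitin chains, was at 77.9, 62.8 and 31.6 CPM in MGJ. Papss2, which makes the sulphate donor, was at 489.5, 502 and 275 CPM in MGJ and 563, 511 and 232 in MGJ2.

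In the mineralization list 9 of 18 genes were past 1.5-fold higher in members than in lower-Col10a1 cells of MGJ and 2 lower, and over higher-Col10a1 cells 2 of 17 were higher and 6 lower. In MGJ2, 8 of 16 were higher and 1 lower over lower-Col10a1 cells. Over higher-Col10a1 cells the libraries differed, with 6 of 15 higher and 3 lower in MGJ2 and a median ratio of 1.34 there against 0.911 in MGJ. These counts include Phex, Ibsp, Alpl and Spp1, which the hypertrophic list also holds. Smpd3, a sphingomyelinase needed for mineralization, was at 306, 737 and 632 CPM in MGJ and at 952, 1421 and 794 in MGJ2. Panx3 was at 195, 416 and 354 CPM in MGJ and at 536, 880.0 and 305 in MGJ2. Mgp, an inhibitor of cartilage calcification, was lowest in members in both libraries. It was at 15715, 4322 and 7478 CPM in MGJ, which made members 3.64-fold lower than lower-Col10a1 cells and 1.73-fold lower than higher-Col10a1 cells. In MGJ2 it was at 10915, 2855 and 13257 CPM. Across the bins of MGJ it reached its lowest level, 3474 CPM, in the upper bin of the members. Ank, a pyrophosphate transporter, was at 143, 67.2 and 69.4 CPM in MGJ.

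The bone matrix genes Bglap (osteocalcin) and Dmp1, which mark osteoblasts and osteocytes, were low in members of MGJ, at 23.9 and 17.1 CPM against 5.74 and 8.98 in lower-Col10a1 cells and 45.6 and 34.5 in higher-Col10a1 cells. In MGJ2 they were at 413 and 246 CPM in members, but 94.9% of the Bglap and 74.8% of the Dmp1 UMIs of members lay in 1 cell each. Without the highest doublet scores, the Bglap ratio over higher-Col10a1 cells of MGJ2 turned from 2.31 to 0.162.

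Among matrix proteases and their inhibitors, 1 of 15 was past 1.5-fold higher in members than in lower-Col10a1 cells of MGJ and 6 were lower. The higher one was Timp3, an inhibitor of metalloproteinases, at 489, 1716 and 2031 CPM across the classes of MGJ and 790.1, 1232 and 1200.0 in MGJ2. Mmp3, Mmp2 and Ctsk, which degrade matrix, were at 25.9, 158 and 55.8 CPM in members of MGJ against 97.6, 311 and 97.6 in lower-Col10a1 cells.

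Next, signalling genes were examined. Of 23 genes of BMP and TGF-beta signalling, 5 were past 1.5-fold higher in members than in lower-Col10a1 cells of MGJ and 6 lower. Over higher-Col10a1 cells, 2 of 19 were higher and 5 lower. Bmp2 was at 172, 577 and 1009 CPM in MGJ and at 135, 422 and 634 in MGJ2, where the ratio over higher-Col10a1 cells was 1.05 as a mean of single cells. Bmp6 was at 28.5, 85.0 and 148 CPM in MGJ and at 63.8, 111 and 143 in MGJ2. Nog, the secreted antagonist of BMPs, was at 9.07, 50.3 [45.6 to 55.4] and 77.5 CPM in MGJ. In MGJ2, at 34.0, 49.5 and 85.2 CPM, its ratio over lower-Col10a1 cells of 1.46 [0.881 to 2.36] was within 1.5-fold. Members of MGJ thus lay between the other classes in both a BMP ligand and its antagonist. The smallest ratios over lower-Col10a1 cells of MGJ were those of the receptor Bmpr1b, at 0.727 against 3.81 CPM, and of the antagonist Grem1, at 0.970 against 4.28 CPM. Gdf10, a ligand of the family, was at 14.2 CPM in members against 6.03 in higher-Col10a1 cells.

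For Wnt signalling, 6 of 18 genes were higher in members than in lower-Col10a1 cells of MGJ and 5 lower. Wnt5b, a noncanonical ligand, was at 34.3, 78.5 and 81.4 CPM, and Frzb, a secreted Wnt inhibitor, at 229, 412 and 623. Notum, which inactivates Wnt ligands, was at 21.0, 6.42 and 2.08 CPM. Sfrp5, a secreted inhibitor, had the largest ratio over higher-Col10a1 cells, at 33.2 against 9.29 CPM, with 19.3% of the members' UMIs in 1 cell. For FGF and IGF signalling, 2 of 18 were higher and 9 lower in MGJ, among them Igfbp3, an IGF-binding protein, at 5.70 CPM in members against 17.5, and the growth factor Igf1, at 31.0 against 72.1, with 21.1% of the members' UMIs in 1 cell. In MGJ2 only 9 genes of the list had enough UMIs, of which 2 were higher and none lower. The genes lower in MGJ could thus not all be checked there. The list median ratio was 1.12 over these 9 genes, against 0.674 over the 18 genes measured in MGJ. Fgf1, a ligand, was at 12.9, 28.0 and 63.1 CPM in MGJ. It was at 25.7, 117 and 139 CPM in MGJ2. The decoy receptor Fgfrl1 was at 294, 218 and 92.9 CPM in MGJ.

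Dividing cells had been left out by the rule through 6 cell cycle genes, none of them in the list of cell cycle exit and p53 target genes. Over lower-Col10a1 cells, 3 of 16 genes were past 1.5-fold higher in MGJ and none lower, and in MGJ2 6 of 8 were higher and 1 lower. Cdkn1c (p57), which holds prehypertrophic chondrocytes out of the cycle, was at 273, 695 [678 to 714] and 708 CPM in MGJ. In MGJ2 it was at 259, 433 and 139.5 CPM, so members lay above both classes there. Cdkn1a (p21), a target of p53, was at 837, 1274 and 1241 CPM in MGJ and 793, 1246 and 1182 in MGJ2. Cdkn2a, a marker of senescent cells, was at 6.66, 5.70 [4.19 to 7.58] and 8.598 CPM in MGJ, and Trp53 was at 37.4, 33.0 and 28.0. In MGJ2 Cdkn2a was at 23.6, 23.0 and 20.4 CPM.

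In the list of hypoxia response and glycolysis, 4 of 25 genes were higher in members than in lower-Col10a1 cells of MGJ and 1 lower. Bnip3, of hypoxia-induced mitophagy, was at 126, 282 and 219 CPM, and Epas1 (HIF-2 alpha) was at 3.36, 6.79 and 35.5. Over higher-Col10a1 cells 6 of 24 were higher and 1 lower, led by Car9, a carbonic anhydrase, at 12.2 against 3.66 CPM. In MGJ2, 0 of 19 were higher than in lower-Col10a1 cells and 2 lower, and Bnip3 was at 123, 133 and 118 CPM. Vegfa, the vessel growth factor counted with the hypertrophic genes, was at 329, 302 and 419.6 CPM in MGJ and at 430.1, 581 and 821 in MGJ2. No gene of the oxidative phosphorylation list was past 1.5-fold over lower-Col10a1 cells of MGJ, with 15 measured.

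The study addressed the mechanosensitive channel Piezo1 and apolipoprotein E (Apoe) in chondrocytes. Piezo1 was at 108, 117 [109.8 to 125] and 106 CPM in the 3 classes of MGJ and at 137, 155 [125 to 192] and 93.5 in MGJ2. The ratios were within 1.5-fold in MGJ, at 1.08 over lower- and 1.11 [1.01 to 1.21] over higher-Col10a1 cells, while in MGJ2 they were 1.13 and 1.66. After thinning, 40.5% of members of MGJ had a Piezo1 UMI [35.2 to 46.1], against 40.6% of lower- and 36.1% of higher-Col10a1 cells and 9.72% of the neutrophil reference. In MGJ2 this share of members was 47.1% [23.0 to 72.2]. Trpv4, another mechanosensitive channel, was at 243, 204 and 131 CPM in MGJ and at 244, 235 and 107 in MGJ2. Apoe was at 112, 136 and 92.7 CPM in MGJ, with 29.3% of the members' UMIs in 1 cell, and its ratio over lower-Col10a1 cells was as low as 0.696 across the alternative settings. A UMI of Apoe was found in 12.5% of thinned members [9.12 to 16.6], and in 15.5% of lower- and 12.9% of higher-Col10a1 cells. The reference was at 27.8%. Since all 3 classes lay below the reference, it cannot serve as a floor for Apoe. Whether the Apoe UMIs of members were free RNA was not tested. Over the whole list of 11 mechanosensor, bone and senescence genes that held these, 3 were past 1.5-fold higher in members than in lower-Col10a1 cells of MGJ and 1 lower.

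**Figure D4:**
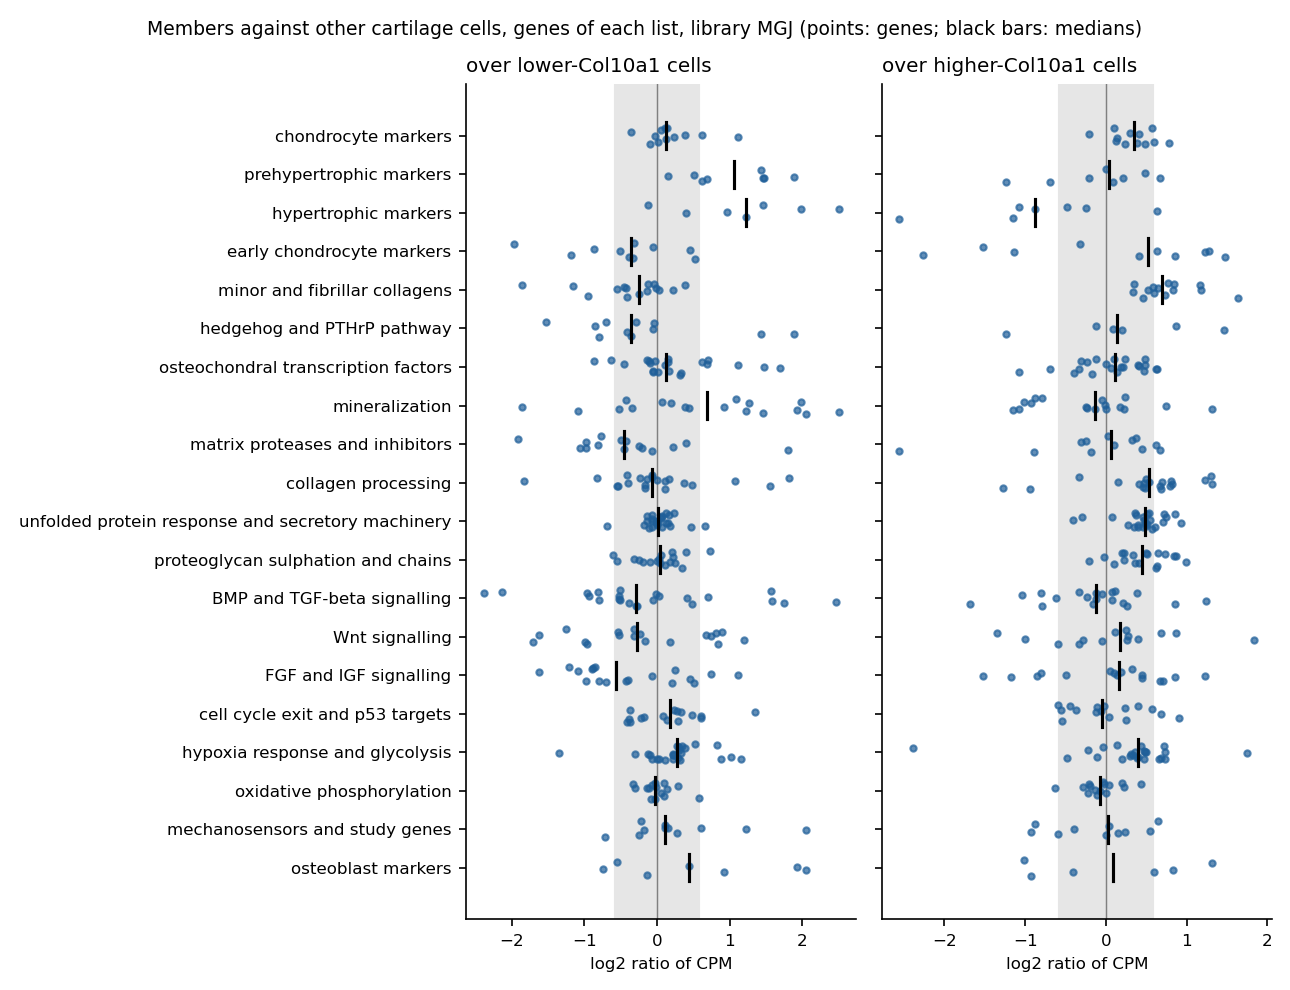
The log2 ratio of CPM (horizontal axes) of members to lower-Col10a1 cells and to higher-Col10a1 cells in library MGJ, with 1 point per gene of each list, black bars for list medians and a grey band for ratios within 1.5-fold. The medians of the prehypertrophic and hypertrophic lists lie at 1.06 and 1.23 over lower-Col10a1 cells, and those of the collagen and hypertrophic lists at 0.69 and -0.88 over higher-Col10a1 cells.

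Outside the lists, the genes with the largest ratios in MGJ that lay on the same side of 1 in MGJ2 were listed. For several of them MGJ2 held almost no UMIs, with 0 in members against 1 for Atp1b2 and Lipg, 0 against 2 for U90926 and 2 against 2 for Fcer2a, so that its side of 1 carries no weight there. Over lower-Col10a1 cells these were Krtap17-1, Wnk4, Cds1, Fcer2a and Aldh1a3. The kinase gene Wnk4 was at 29.6 CPM in members against 2.92 in MGJ, with UMIs in 121 members, and at 74.2 against 11.8 in MGJ2. Cds1, of phospholipid synthesis, was at 45.9 against 4.60 CPM in MGJ and at 24.7 against 3.47 in MGJ2. Aldh1a3, which makes retinoic acid, was at 109.8 against 18.1 CPM in MGJ and 65.4 against 32.6 in MGJ2. Krtap17-1 was 10.9-fold higher in MGJ, with 16.8% of the members' UMIs in 1 cell, and in MGJ2 all of its UMIs in members came from 1 cell. The genes lower in members were U90926 (3 UMIs in members against 305, a ratio of 0.0376 [0.00771 to 0.111]), Kcne4, Ly6m, Atp1b2 and Itih3. Over higher-Col10a1 cells, Pamr1, Chrdl2, Prss35, Gjb5 and Ntrk2 led the genes higher in members. Chrdl2, a BMP antagonist, was at 41.8 CPM in members against 9.19 in MGJ. Pla2g10, Pde11a, Cxcl14, Dapk2 and Lipg led those lower in members, and the chemokine Cxcl14 was at 8.85 CPM in members against 83.3 in higher-Col10a1 cells of MGJ and at 7.07 against 49.0 in MGJ2.

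Finally, markers of other cell types were summed in members. In MGJ all 7 neutrophil markers were detected, at 401 CPM in members against 367 in lower- and 375 in higher-Col10a1 cells. The 7 macrophage markers summed to 156 CPM, against 209 and 195, with a median member at 35.6 CPM and the highest at 12012. The erythroid markers summed to 341 CPM against 92.5 and 25.5, with 94.4% of the members' UMIs in 1 cell, and without the 4 members rich in macrophage or erythroid transcripts they were at 19.1 CPM. In the members of MGJ, 6 of 7 lymphocyte markers summed to 17.1 CPM and 5 of 6 endothelial markers to 11.3 CPM. Fibroblast and tendon markers summed to 2622 CPM against 3175 and 2731, and 4 of 6 osteoclast markers to 71.2 CPM, with the defining Atp6v0d2 and Calcr at 0. Of 10 osteoblast markers, 9 were detected and Sost was at 0. They summed to 11481 CPM in members, against 13806 and 7302. In MGJ2 they summed to 18988 CPM in members, against 24756 and 7845. The sum includes Col1a1, found in 94.5% of thinned members and 97.7% of lower-Col10a1 cells of MGJ, so it does not mark osteoblasts alone. In MGJ2 the macrophage markers summed to 544 CPM in members, with 96.8% in 1 cell and 19.3 CPM without it, and the neutrophil markers to 205 CPM with Csf3r, Cxcr2 and Mmp8 at 0. The part of other cells in the results was not tested beyond leaving these cells out.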

How the data were processed

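Wild-type fracture callus was measured by 10x Chromium 3′ v3 single-cell RNA-seq in 2 libraries. The deposited files hold raw UMI counts per gene and barcode, which the authors obtained from Cell Ranger, whose version in the headers was 4.0.0. GRCm38 and Seurat are named in the submitters' processing notes. The annotation is not given in the sources used here, and gene positions came from GENCODE M21, in which 99.8% of gene IDs were found. Median depth per barcode was 5026 and 4952 UMIs.

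Counts were summed over members and over cartilage cells below and above the Col10a1 range, separately per library, in Python 3.11.15 with numpy 2.4.6, scipy 1.17.1, pandas 2.3.3 and scanpy 1.11.5. CPM had exact Poisson intervals, ratios exact conditional binomial intervals, and shares exact Clopper-Pearson intervals after thinning to 5000 UMIs (seed 20). The scripts were tested on simulated data. Groups could not be taken from the labels, so no test was made.

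Scrublet called 0 of 13460 barcodes in MGJ, which is no usable result, and 223 of 7806 (2.86%) in MGJ2, with 0 members among them. The 460 barcodes of MGJ2 with the highest scores, however, held 6 of its 17 members. They also held 12 of 48 lower- and 11 of 38 higher-Col10a1 cells. In MGJ, 1380 barcodes had the highest scores, with 39 of 328 members, 160 of 1475 lower- and 41 of 435 higher-Col10a1 cells. No doublets were removed, and leaving out the highest scores was an alternative. The members and lists were chosen with earlier results of these data known. Named genes were the genes of the rule and of 27 lists, with examples taken by largest ratio in MGJ, by level and, after their values were seen, for their known role. Beyond the lists, the 5 most extreme ratios of MGJ on either side of 1 were named where MGJ2 lay on the same side. The reference for free RNA was barcodes with S100a8 and S100a9 of 100 or more and Col2a1 under 50 per 10000 UMIs and at least 5000 UMIs. Leaving out cells rich in blood or macrophage transcripts or with the highest Scrublet scores was chosen after seeing the data.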

Additional observations from a re-analysis of the deposited data

Results flagged for a closer look

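Pth1r signal also appeared in barcodes outside the members that missed only 1 of the thresholds, with a Col10a1 level in the members' range, above the level in the neutrophil reference. In MGJ, Pth1r was at 1142 CPM in 20 barcodes under the minimum of 5000 UMIs, at 1374 CPM in 14 barcodes over the myeloid limit, at 1019 CPM in 18 barcodes over the acute-phase limit, and at 771 CPM in 6 barcodes over the cell cycle limit, against 1462 CPM in members. In MGJ2 it was at 1224 CPM in 1 barcode under the minimum UMIs and at 1764 CPM in 1 barcode over the cell cycle limit, against 2069 CPM in members. Barcodes that missed only the Col2a1 minimum were at 366 CPM in MGJ (3 barcodes) and 1638 CPM in MGJ2 (4), those that missed only the Acan minimum at 889 CPM (2) and 218 CPM (1), and 1 barcode of MGJ over the limit on genes or mitochondrial UMIs at 1032 CPM. Ihh in the barcodes of MGJ that missed the minimum UMIs or the myeloid, acute-phase or cell cycle limit was at 141, 52.7, 122 and 22.3 CPM, against 96.8 CPM in members. These barcodes were not tested, and the values of these 4 sets rest on 56919, 360286, 474779 and 224433 UMIs.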

How the results depend on the processing

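No paired analysis was possible because the libraries have no groups, and leaving out a replicate was not possible with 1 library each. In 14 alternatives, gene ratios were recomputed for a limited set of genes, 384 ratios in all, and not for every gene past 1.5-fold. Of the 249 among them past 1.5-fold, 7 moved to the other side of 1, all in MGJ2 with its 17 members. Among the recomputed gene ratios and shares of cells with a UMI, 645 values lay outside the counting interval of the reported value, and 3403 lay within it. Fgfr1 over lower-Col10a1 cells was 0.940 with the thresholds applied to 5000 thinned UMIs. With members of 20 to under 50 per 10000 UMIs alone, Ihh and Sp7 over lower-Col10a1 cells were 0.876 and 0.532, and Ucma over higher-Col10a1 cells was 0.770. Over higher-Col10a1 cells, Ptch1 was 0.981 without the 10% of cells with the most UMIs, Bmp2 was 1.05 as a mean of single cells, and Bglap was 0.162 without the highest Scrublet scores. The counts of genes past 1.5-fold were within 1.5 times the reported ones except with another filter or fold. With at least 20 UMIs they were 3276 over lower- and 2633 over higher-Col10a1 cells in MGJ and 2191 and 2535 in MGJ2. At 2-fold they were 545 and 343 in MGJ and 124 and 247 in MGJ2, where the share of higher genes over lower-Col10a1 cells was 38.7% in place of 48.9%. With 17 members, MGJ2 limits every value to few cells. Scrublet calls could not serve as an alternative in MGJ.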
